A study of Homo sapiens with 12 samples.

Results

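The thioredoxin-interacting protein gene TXNIP was followed together with 3 further genes of the arrestin-domain family (ARRDC4, ARRDC3 and ARRDC1) and the genes of the glucose-sensing transcription factor pair MLXIP and MLX. These 6 genes were chosen by symbol, among the 58735 genes in the count table, and all 6 passed the filter on low counts that left 16891 genes for testing. The libraries came from FDX2-iKO cells, made from the human ovarian carcinoma line ES2 by knocking out the endogenous FDX2 gene while an inducible FDX2-HA, resistant to the editing, was supplied from a TetON cassette. FDX2 is a mitochondrial ferredoxin used in the assembly of iron-sulfur clusters. All groups carried the knockout and the inducible cassette, and differed in doxycycline (Doxy) and oxygen: "20% O2 + Doxy", "20% O2 wo Doxy", "3% O2 + Doxy" and "3% O2 wo Doxy", with 3 libraries each, described as biological replicates, and 12 in all. Cells at 20% O2 were cultured for 6 days, and those at 3% O2 were kept 4 days at 20% and then 3 days at 3% O2, so that oxygen and total culture time cannot be told apart. Without Doxy the cells lose FDX2-HA, and this is called FDX2 loss here. The drug and the protein were withdrawn together, so the effect of Doxy itself cannot be told apart from that of FDX2. The cells were cloned by limiting dilution, and the study's methods give a single clone as the one shown unless stated otherwise, so the replicates are cultures of the clone rather than independent knockouts.

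Proteins of the alpha-arrestin family carry paired arrestin folds and, in most members, short proline-rich motifs through which they recruit ubiquitin ligases of the NEDD4 family to membrane proteins. TXNIP also binds thioredoxin, and it and ARRDC4 lower glucose uptake by removing glucose transporters from the cell surface. Transcription of TXNIP and ARRDC4 is driven by the MLXIP protein (MondoA) together with its partner MLX, which enter the nucleus when glucose 6-phosphate accumulates and bind E-box sequences in these promoters. ARRDC3 is known for its part in the trafficking of adrenergic receptors and integrins, and ARRDC1 for the budding of small vesicles at the plasma membrane.

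The promoters are shown because E-box sequences are what MondoA and MLX bind. The RefSeq promoter table (GRCh38.p14) held all 6 genes, and its entry nearest to the annotated start was used. The 250 bases before the transcript start are printed for TXNIP (chr1:145996580-145996829, minus strand) and ARRDC4 (chr15:97960453-97960702, plus strand). Capitals mark the E-box in ARRDC4 and the repeated E-box-like units in TXNIP. For MLX the E-box is printed with its flanking bases.
TXNIP: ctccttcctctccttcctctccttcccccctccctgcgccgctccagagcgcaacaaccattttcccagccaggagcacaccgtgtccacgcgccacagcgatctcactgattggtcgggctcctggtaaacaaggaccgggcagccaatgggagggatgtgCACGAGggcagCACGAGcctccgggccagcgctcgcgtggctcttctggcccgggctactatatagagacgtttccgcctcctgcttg
ARRDC4: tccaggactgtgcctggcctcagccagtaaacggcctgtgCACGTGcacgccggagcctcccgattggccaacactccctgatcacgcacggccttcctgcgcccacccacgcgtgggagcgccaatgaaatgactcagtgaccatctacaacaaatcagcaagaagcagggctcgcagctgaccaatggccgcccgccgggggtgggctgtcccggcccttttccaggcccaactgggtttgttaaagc
MLX: cgggtCACGTGggcac

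The canonical E-box, CACGTG, was found in the 300-base promoter windows of ARRDC4 (chr15:97960493-97960498) and MLX (chr17:42567050-42567055), and in 7.26% of all 35116 windows searched on both strands. TXNIP had no CACGTG, but its window held CACGNG repeated after 5 bases at chr1:145996651-145996667, from 88 to 72 bases upstream of the start. This repeat was spelled out only after the TXNIP letters had been seen, and it occurred in 20 windows (0.057%). A looser pair of the kind known from carbohydrate response elements, CANGNG and CNCNTG set 5 bases apart, was in 0.564% of windows and in 0 of the 6 genes. That 0 holds for this spelling alone, which the TXNIP repeat does not match, and does not show that such elements are absent. The hypoxia core ACGTG, which overlaps the E-box, was in ARRDC4 and MLX and in 21.4% of windows, and CCAAT was in all 6 genes and in 34.6% of windows. These are matches of letters in one window and say nothing of binding.

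**Figure D1:**
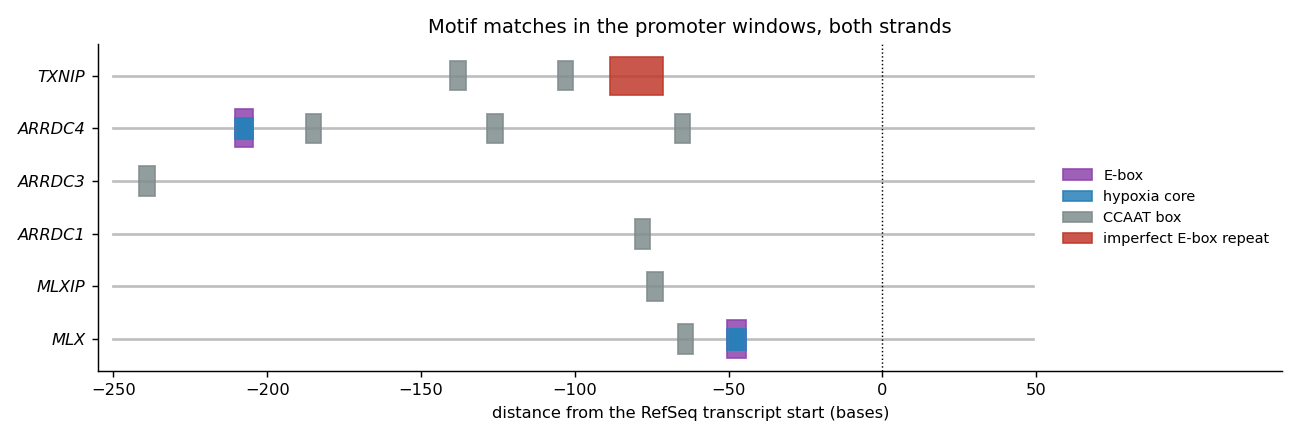
Motif matches in the promoter windows of the 6 genes, plotted by distance in bases from the RefSeq transcript start (dotted line), with matches on either strand drawn as boxes. The imperfect E-box repeat lies only in TXNIP, at 88 to 72 bases upstream, and the E-box only in ARRDC4 and MLX, where it overlaps the hypoxia core.

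Library totals lay between 24958386 and 34313637 counts on genes (median 29621780). The targeted gene FDX2 (ENSG00000267673) had 2 to 13 counts in every library and was not tested, and 972 of its 1371 exonic bases (70.9%) are shared on the same strand with AC011511.1 and AC011511.4, so the loss of FDX2 could not be checked on these counts. The oxygen labels were checked on CA9, which encodes a hypoxia-induced carbonic anhydrase, at 3 counts or fewer per library in 20% O2 + Doxy and 1145 to 2699 counts at 3% O2, and on LDHA, which encodes lactate dehydrogenase A, at 1592 ± 83.3 CPM in 20% O2 + Doxy and 3416 ± 215 in 3% O2 + Doxy (SD, n = 3). CPM is a count relative to the library total after TMM scaling. Of the ovarian carcinoma markers, PAX8, KRT7, KRT8, KRT18 and VIM reached 1 CPM, while EPCAM and MUC16 had 3 counts or fewer in every library. Of 9 markers of other cell types only CDH5 reached 1 CPM, at group means of 24.7 CPM in 20% O2 + Doxy to 45.1 CPM in 3% O2 wo Doxy, while PTPRC, CD3E, DES and INS had 3 counts or fewer in every library, and the part of other cell types in the results was not tested. CDH5 was higher with FDX2 loss at 3% O2 (1.41-fold, edgeR adjusted p = 0.0305) and at 3% against 20% O2 without Doxy (1.71-fold, edgeR adjusted p = 0.00114). With FDX2 loss at 20% O2, ACTA2, a smooth muscle actin at 10 to 29 counts per library at 20% O2, was higher (2.13-fold, edgeR adjusted p = 0.00748) and KRT7, KRT18 and VIM were lower (log2 fold changes −0.40, −0.55 and −0.49). Libraries also differed in base composition: the mean transcript GC content weighted by counts was 50.5% in 20% O2 + Doxy replicate 1, 50.6% in 3% O2 + Doxy replicate 3 and 50.6% in 3% O2 wo Doxy replicate 2, against 49.3% to 50.1% in the other 9.

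TXNIP (ENSG00000265972, chromosome 1, 145992435 to 145996600, minus strand, GRCh38) had the largest fold change of the 6 genes with FDX2 loss at 20% O2. In 20% O2 + Doxy its level was 66.3, 72.4 and 76.7 CPM, and in 20% O2 wo Doxy it was 206.5, 203.3 and 209.2 CPM. The libraries without Doxy all lay above those with Doxy, 2.87-fold higher in the edgeR quasi-likelihood fit (log2 fold change 1.52, standard error 0.068, adjusted p = 1.39e-07 by Benjamini and Hochberg over all 16891 genes). These are bulk samples, in which a changed share of cells and a changed amount of RNA per cell cannot be told apart.

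At 3% O2 the same withdrawal had the opposite sign. TXNIP was at 122.8, 136.2 and 136 CPM in 3% O2 + Doxy and at 102.5, 99.4 and 110.8 CPM in 3% O2 wo Doxy. The groups did not overlap, and the libraries without Doxy were now the lower ones, with a log2 fold change of −0.34 (standard error 0.067, edgeR adjusted p = 0.0127). This call was lost without 3% O2 + Doxy replicate 2 (log2 fold change −0.32, edgeR adjusted p = 0.0564) or without 3% O2 wo Doxy replicate 2 (−0.31, edgeR adjusted p = 0.0556), and when only the 6 libraries compared were fitted (−0.36, edgeR adjusted p = 0.0583).

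Between oxygen levels TXNIP also differed in opposite directions. With Doxy it was higher at 3% than at 20% O2 by 0.87 on the log2 scale (standard error 0.067, edgeR adjusted p = 3.6e-05). Without Doxy it was lower at 3% O2 (log2 fold change −0.98, standard error 0.067, edgeR adjusted p = 6.63e-06). Its group means were therefore ordered 71.8 ± 5.20 CPM in 20% O2 + Doxy, 104 ± 5.89 in 3% O2 wo Doxy, 132 ± 7.69 in 3% O2 + Doxy and 206 ± 2.95 in 20% O2 wo Doxy (SD, n = 3), and no neighbours in this order overlapped.

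ARRDC4 (ENSG00000140450, chromosome 15, 97960698 to 97973838, plus strand), the closest relative of TXNIP in its known role in glucose uptake, was expressed at a lower level, and its group means followed the same order. It was at 4.83, 4.53 and 4.38 CPM in 20% O2 + Doxy (up to 151 counts) and at 8.44, 8.79 and 8.61 CPM in 20% O2 wo Doxy. The groups did not overlap, and the log2 fold change was 0.91 (standard error 0.11, edgeR adjusted p = 7.96e-05). In 3% O2 + Doxy it was at 6.28, 7.56 and 6.66 CPM and in 3% O2 wo Doxy at 4.71, 4.44 and 5.65 CPM, again without overlap but with the libraries without Doxy lower (log2 fold change −0.47, standard error 0.11, edgeR adjusted p = 0.0247). Between oxygen levels it rose with Doxy (0.58, standard error 0.11, edgeR adjusted p = 0.0172) and fell without Doxy (−0.80, standard error 0.11, edgeR adjusted p = 0.000458). The 3% O2 wo Doxy and 20% O2 + Doxy levels, 4.93 ± 0.631 and 4.58 ± 0.228 CPM (SD, n = 3), overlapped.

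The calls on ARRDC4 differed in how far they depended on single libraries. Those at 20% O2 with Doxy withdrawn, and for oxygen without Doxy, held in every alternative fit. FDX2 loss at 3% O2 lost its call for ARRDC4 without 3% O2 + Doxy replicate 2 (edgeR adjusted p = 0.0875), 3% O2 wo Doxy replicate 1 (0.0702) or 3% O2 wo Doxy replicate 2 (0.0987). The rise at 3% O2 with Doxy lost its call without 20% O2 + Doxy replicate 2 (edgeR adjusted p = 0.0887), 20% O2 + Doxy replicate 3 (0.0856) or 3% O2 + Doxy replicate 2 (0.0754), and without the GC-rich libraries 20% O2 + Doxy replicate 1 and 3% O2 + Doxy replicate 3 together (0.0542).

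**Figure D2:**
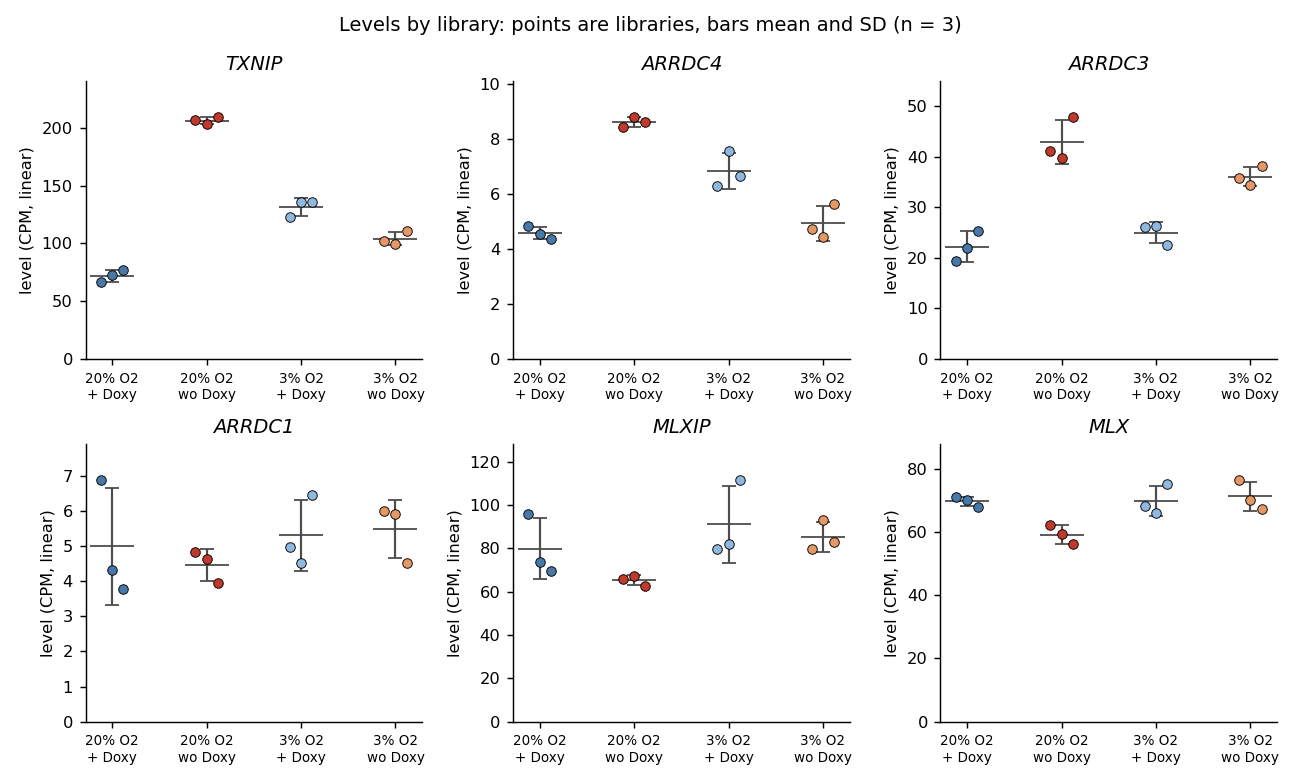
Levels of the 6 genes in CPM (linear axes from 0) in each of the 12 libraries, with points for libraries and bars for the mean and SD of 3 replicates in each of the 4 conditions. TXNIP and ARRDC4 are highest in 20% O2 wo Doxy, where TXNIP lies at 203.3 to 209.2 CPM, ARRDC3 is higher wo Doxy at both oxygen levels, and ARRDC1 and MLXIP have a high library in 20% O2 + Doxy (replicate 1) and in 3% O2 + Doxy (replicate 3).

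ARRDC3 (ENSG00000113369, chromosome 5, 91368724 to 91383359, minus strand), the family member linked to receptor and integrin trafficking, rose with FDX2 loss at both oxygen levels. It was at 19.28, 22.03 and 25.36 CPM in 20% O2 + Doxy and at 41.2, 39.7 and 47.8 CPM in 20% O2 wo Doxy. These groups did not overlap (log2 fold change 0.95, standard error 0.11, edgeR adjusted p = 6.04e-05). In 3% O2 + Doxy it was at 26.1, 26.3 and 22.6 CPM and in 3% O2 wo Doxy at 35.8, 34.4 and 38.1 CPM. The libraries without Doxy were again all higher, by 0.53 on the log2 scale (standard error 0.11, edgeR adjusted p = 0.0139). That call was lost without 3% O2 + Doxy replicate 2 (edgeR adjusted p = 0.0513), without 3% O2 wo Doxy replicate 3 (edgeR adjusted p = 0.0514) and in the fit of the 6 libraries alone (edgeR adjusted p = 0.0558). Between 3% and 20% O2, ARRDC3 did not pass the threshold with Doxy (0.17, edgeR adjusted p = 0.593, 95% interval −0.069 to 0.41) or without Doxy (−0.25, edgeR adjusted p = 0.105, interval −0.48 to −0.017). With the replicate number as a block in the 6 libraries without Doxy, however, it was lower at 3% O2 (−0.26, edgeR adjusted p = 0.0194). Of its exonic bases 2.94% overlap ARRDC3-AS1 on the other strand, and the strand setting of the counting is not given in the sources used here.

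ARRDC1 (ENSG00000197070, chromosome 9, 137605654 to 137615360, plus strand), which acts in vesicle budding, passed the test in none of the 5 comparisons. It was at 6.87, 4.31 and 3.76 CPM in 20% O2 + Doxy, 4.81, 4.62 and 3.93 in 20% O2 wo Doxy, 4.95, 4.51 and 6.43 in 3% O2 + Doxy and 6.00, 5.91 and 4.52 in 3% O2 wo Doxy, so that all groups overlapped. Its 95% interval for FDX2 loss at 20% O2 ran from −0.65 to 0.33 on the log2 scale, so changes within that range are not excluded. ARRDC1 had 118 to 215 counts per library. Its direction for FDX2 loss at 20% O2 turned from −0.16 to 0.13 without 20% O2 + Doxy replicate 1. The transcripts of ARRDC1 have a mean GC content of 62.9%, the highest of the 6 genes, and its 2 highest libraries were 20% O2 + Doxy replicate 1 and 3% O2 + Doxy replicate 3, which were also among the 3 GC-richest libraries. With a correction for GC content the log2 fold change for FDX2 loss at 20% O2 was 0.10. Exonic overlap with ARRDC1-AS1 and AL590627.2 covers 5.55% of its bases.

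MLXIP (ENSG00000175727, chromosome 12, 122078722 to 122147347, plus strand), the gene of MondoA, was called in none of the 5 comparisons in the main edgeR fit. Some alternative fits called it. It was at 95.9, 73.8 and 69.7 CPM in 20% O2 + Doxy and at 66.0, 67.3 and 62.8 CPM in 20% O2 wo Doxy. The libraries without Doxy were all lower, but the log2 fold change of −0.29 (standard error 0.14) did not pass the test (edgeR adjusted p = 0.141). With a correction for GC content it did, at −0.15 (edgeR adjusted p = 0.0405), and without 20% O2 + Doxy replicate 1 it was −0.15 without passing (edgeR adjusted p = 0.422). At 3% O2 it was at 79.8, 81.9 and 111.6 CPM with Doxy and at 79.7, 93.1 and 83.0 CPM without Doxy, overlapping. The high values again belonged to 20% O2 + Doxy replicate 1 and 3% O2 + Doxy replicate 3. MLXIP transcripts have a mean GC content of 57.8%, against 43.3% to 45.9% for TXNIP, ARRDC4 and ARRDC3. Without Doxy it was at a log2 fold change of 0.38 between 3% and 20% O2 (standard error 0.14, edgeR adjusted p = 0.0694). It was called in 5 of 15 alternative fits of that comparison. Among them was the fit with the replicate number as a block in the 6 libraries (0.37, edgeR adjusted p = 0.00907).

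MLX (ENSG00000108788, chromosome 17, 42567068 to 42573239, plus strand), the partner through which MondoA binds DNA, moved by small amounts. It was at 70.9, 70.0 and 67.9 CPM in 20% O2 + Doxy and at 62.0, 59.3 and 56.1 CPM in 20% O2 wo Doxy. The groups did not overlap, and MLX fell by 0.23 on the log2 scale (standard error 0.067, edgeR adjusted p = 0.0183). In 3% O2 + Doxy it was at 68.0, 66.0 and 75.0 CPM and in 3% O2 wo Doxy at 76.4, 70.0 and 67.3 CPM, with overlap (log2 fold change 0.03, edgeR adjusted p = 0.822). Without Doxy it was higher at 3% than at 20% O2 (0.27, standard error 0.067, edgeR adjusted p = 0.0144), a call lost without 20% O2 wo Doxy replicate 3 (edgeR adjusted p = 0.0702) and after correction for GC content (0.14, edgeR adjusted p = 0.0739). Of the exonic bases of MLX 18.1% overlap PSMC3IP on the other strand.

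Read against all tested genes, FDX2 loss at 20% O2 called 4 of the 6 genes, TXNIP, ARRDC4 and ARRDC3 higher and MLX lower, where 35.3% of all genes were called, 17.6% higher and 17.7% lower. At 3% O2, 3 of the 6 were called, ARRDC3 higher and TXNIP and ARRDC4 lower, where 7.31% of all genes were called (4.2% higher, 3.11% lower). That background was unsteady, with 1235 genes called in all, 581 without 3% O2 + Doxy replicate 2 and 218 in the 6 libraries compared. For 3% against 20% O2 with Doxy, TXNIP and ARRDC4 were higher, 2 of 6 against 2.02% of all genes (1.63% higher, 0.385% lower). Without Doxy, 3 of 6 were called, TXNIP and ARRDC4 lower and MLX higher, against 25.8% of all genes (13.9% higher, 11.9% lower). For this last comparison the deviations of same-numbered libraries from their group means correlated at 0.19 to 0.50, and those of other numbers at −0.47 to 0.23. These ranges overlap, and the labels give replicate numbers but no pairing. With only the 6 libraries compared, 5 of the 6 genes were called, against 34.2% of all genes in that fit. With the replicate number as a block in them 5 were also called, against 31.1% of all genes in that fit. ARRDC3 was then lower (−0.26, edgeR adjusted p = 0.0194) and MLXIP higher (0.37, edgeR adjusted p = 0.00907). With a GC correction in the same blocked fit, which called 28.3% of all genes, 3 of the 6 were called: TXNIP, ARRDC4 and MLXIP (0.16, edgeR adjusted p = 0.0261), and not MLX (0.14, edgeR adjusted p = 0.0506) or ARRDC3 (−0.15, edgeR adjusted p = 0.0672). Comparisons that share a group also share its libraries.

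**Figure D3:**
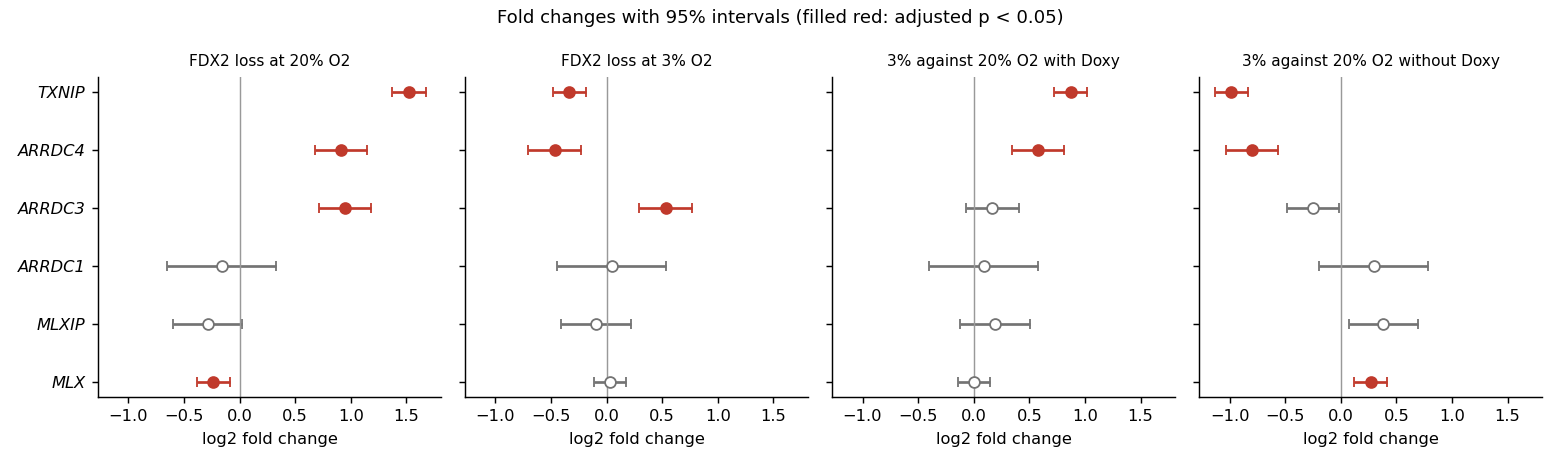
Log2 fold changes of the 6 genes with their 95% intervals in 4 comparisons, with filled red points for genes past an adjusted p of 0.05. TXNIP and ARRDC4 lie to the right of 0 for FDX2 loss at 20% O2 and to the left at 3% O2, whereas ARRDC3 lies to the right at both, and the intervals of ARRDC1 include 0 in all 4 comparisons.

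Whether the response to FDX2 loss differed between oxygen levels was tested directly, as the log2 fold change at 3% O2 minus that at 20% O2. It was −1.86 for TXNIP (standard error 0.095, edgeR adjusted p = 3.74e-06) and −1.38 for ARRDC4 (standard error 0.15, edgeR adjusted p = 0.000697). Both were called in each alternative fit. In this test 7.29% of all genes were called, 3.21% with a positive and 4.08% with a negative difference. The count over all genes, 1231, depended on single libraries, from 520 without 20% O2 wo Doxy replicate 3 to 2191 without 3% O2 + Doxy replicate 3. ARRDC3, which rose at both oxygen levels, had a difference of −0.42 that did not pass the test (standard error 0.15, edgeR adjusted p = 0.124, 95% interval −0.75 to −0.086). For MLX the difference was 0.27 (edgeR adjusted p = 0.117), for MLXIP 0.19 (edgeR adjusted p = 0.601) and for ARRDC1 0.21 (edgeR adjusted p = 0.731).

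**Figure D4:**
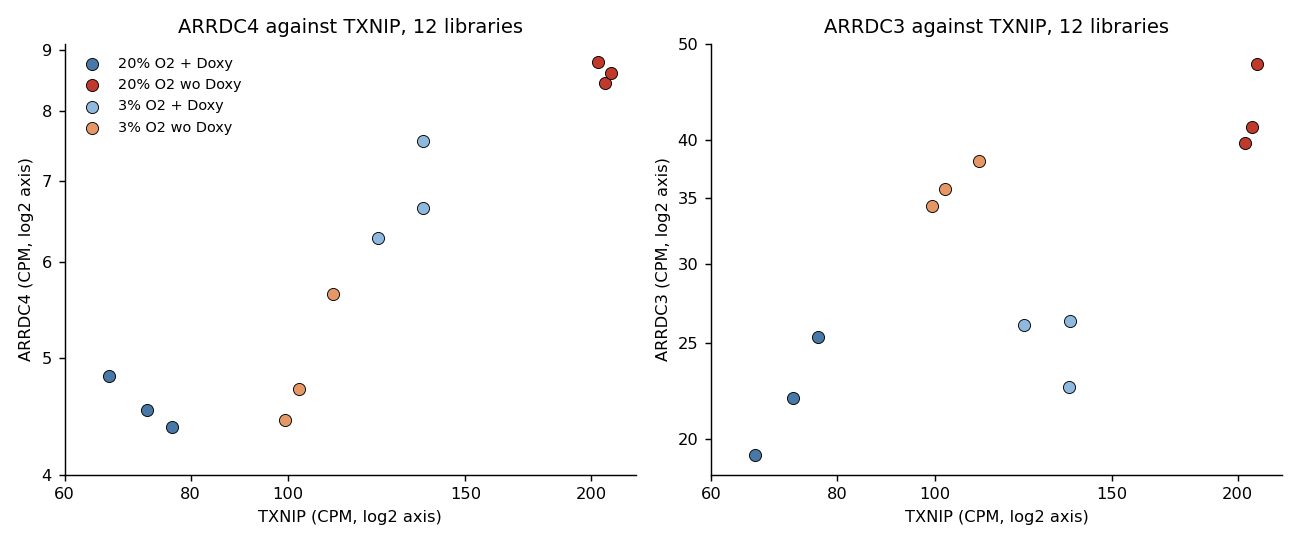
ARRDC4 (left) and ARRDC3 (right) against TXNIP in the 12 libraries, in CPM on log2 axes, with colours for the 4 conditions. ARRDC4 rises with TXNIP from 20% O2 + Doxy and 3% O2 wo Doxy through 3% O2 + Doxy to 20% O2 wo Doxy, whereas ARRDC3 in 3% O2 wo Doxy (34.4 to 38.1 CPM) lies above 3% O2 + Doxy (22.6 to 26.3 CPM) at lower TXNIP.

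Relative to gene length, levels can be compared between the genes. In RPKM, which is CPM divided by the exon length in kilobases, TXNIP was at 19.8 ± 1.43 in 20% O2 + Doxy and 56.9 ± 0.813 in 20% O2 wo Doxy (SD, n = 3), the highest of the 6 genes in every condition. MLX was next, at 13.9 to 16.7 RPKM as group means, followed by MLXIP at 4.70 to 6.55 and ARRDC3 at 4.50 to 8.70. ARRDC4 (at most 2.12 RPKM) and ARRDC1 (1.17 to 1.43 RPKM) were the lowest. Exons of all annotated isoforms entered the lengths, so a gene with long alternative exons is understated. MLXIPL, which encodes ChREBP, the relative of MondoA that senses glucose in liver and fat, had at most 1 count in any library.

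The wider pathway was described by 8 lists from general knowledge (91 genes, of which 72 were tested), chosen with earlier results of these data known. Shares of these lists are to be read against the 35.3% of all tested genes called for FDX2 loss at 20% O2, the 7.31% at 3% O2, the 2.02% for oxygen with Doxy and the 25.8% for oxygen without Doxy. Among the network of MYC, MAX and MLX partners, 2 repressors of the MXD family rose with FDX2 loss at 20% O2. MXI1 went from a mean of 11.1 to one of 21.9 CPM (log2 fold change 0.98, edgeR adjusted p = 1.46e-06) and MXD1 from 7.06 ± 0.373 to 13.9 ± 0.836 CPM (0.97, edgeR adjusted p = 5.93e-06). MGA, which encodes a large MAX-binding protein, rose by 0.54 (edgeR adjusted p = 3.55e-05). These were 3 of 8 tested genes higher and 0 lower, a share near the 35.3% of all genes called, with a list median of 0.21 against 0.009 over all genes. At 3% O2 none of the 8 was called for FDX2 loss (2 at an unadjusted p under 0.05), with MXI1 at 0.22 (edgeR adjusted p = 0.0671). MYC itself was at −0.10 at 20% O2 and −0.14 at 3% O2 (edgeR adjusted p = 0.628 and 0.593).

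Of 4 tested genes with carbohydrate response elements, 3 fell with FDX2 loss at 20% O2 and 1 rose (35.3% of all genes were called), with a median of −0.53. The fatty acid synthesis genes FASN (−0.78, edgeR adjusted p = 0.0274), ACACB (−0.72, edgeR adjusted p = 0.00712) and ACACA (−0.34, edgeR adjusted p = 0.000549) were lower, while KLF10, a zinc finger factor, was higher (0.29, edgeR adjusted p = 0.00337). FASN was at 1112 ± 363 CPM in 20% O2 + Doxy, whose replicate 1 was GC-rich, and at 646.5 ± 20.1 in 20% O2 wo Doxy (SD, n = 3), and the part of base composition was not tested. At 3% O2 none of the 4 was called (1 at an unadjusted p under 0.05). Without Doxy, 3% against 20% O2 gave FASN and ACACA higher (0.80 and 0.23) and KLF10 lower (−0.31, edgeR adjusted p = 0.00408).

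For glucose uptake and phosphorylation, the transporter genes SLC2A3 and SLC2A1 moved apart with FDX2 loss at 20% O2. SLC2A3 (GLUT3) went from 7.54 ± 0.199 to 13.0 ± 0.816 CPM (0.78, edgeR adjusted p = 2.9e-05) and SLC2A1 (GLUT1, a transporter that TXNIP removes from the surface) from 100.1 ± 14.3 to 62.1 ± 2.27 CPM (−0.69, edgeR adjusted p = 0.0014). SLC2A8 was also lower (−0.65, edgeR adjusted p = 0.0167). Of 13 tested genes 2 were higher and 4 lower, where 17.6% of all genes were higher and 17.7% lower. At 3% O2 only HK2, the hexokinase of the list, was called (−0.36, edgeR adjusted p = 0.0143). In cells with Doxy, 6 of 13 were higher at 3% than at 20% O2 and none was lower, with PGM1 and SLC2A1 at 1.09 each and SLC2A3 at 0.71. Without Doxy 6 rose and 1 fell, with SLC2A1 at 1.45 (edgeR adjusted p = 2.78e-05), HK2 at 0.80 and GPI, phosphoglucose isomerase, at 0.79.

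In the thioredoxin system, 13 genes were tested. TXN, which encodes the thioredoxin that TXNIP binds, was at 269 ± 25.8 CPM in 20% O2 + Doxy and 263 ± 9.73 in 20% O2 wo Doxy (SD, n = 3, edgeR adjusted p = 0.853). With FDX2 loss at 20% O2 1 gene rose and 3 fell, a share no higher than the 35.3% of all genes called. The risen gene was TXNRD1, the cytosolic thioredoxin reductase (0.20, edgeR adjusted p = 0.00998), and those that fell were TXNDC5 (−0.63), MAP3K5 (−0.32), the kinase ASK1 that thioredoxin restrains, and NLRP3 (−0.24). Of the exonic bases of TXNDC5, 60.6% are shared on the same strand with BLOC1S5-TXNDC5. Its level in 20% O2 + Doxy was spread, from 17.4 to 28.1 CPM, and the part of base composition was not tested. At 3% O2 none of the 13 was called (3 at an unadjusted p under 0.05). TXNRD1 was lower at 3% than at 20% O2 with Doxy (−0.44, edgeR adjusted p = 0.000671) and without Doxy (−0.66, edgeR adjusted p = 1.3e-05).

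The NEDD4-family ligases, which alpha-arrestins recruit, contained the largest change with FDX2 loss among the lists. HECW2 went from 15.6 ± 0.624 CPM in 20% O2 + Doxy to 58.9 ± 3.56 in 20% O2 wo Doxy (log2 fold change 1.92, edgeR adjusted p = 1.8e-08) and from 16.3 ± 0.522 to 35.5 ± 0.784 CPM at 3% O2 (log2 fold change 1.12, edgeR adjusted p = 8.61e-06). NEDD4L, which limits sodium channels at the membrane, rose by 0.65 at 20% O2 (edgeR adjusted p = 1.39e-06) and 0.24 at 3% O2 (edgeR adjusted p = 0.00758), and SMURF2 was lower at 20% O2 (−0.31, edgeR adjusted p = 0.000601). Of 8 tested, 3 rose and 2 fell at 20% O2 (35.3% of all genes called), and 2 rose and 0 fell at 3% O2 (7.31% called). For oxygen without Doxy HECW2 was lower (−0.73, edgeR adjusted p = 1.71e-05) and ITCH, a ligase known to bind TXNIP, was lower too (−0.30, edgeR adjusted p = 0.0057). ITCH was higher with FDX2 loss at 20% O2 (0.29, edgeR adjusted p = 0.00413), which shares the 20% O2 wo Doxy libraries. For oxygen with Doxy ITCH was not called (−0.079, edgeR adjusted p = 0.675).

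Among 6 tested genes of the arrestin fold outside the 6 studied, VPS26C, a component of the retriever complex, was higher with FDX2 loss at 20% O2 (0.43, edgeR adjusted p = 6.52e-05) and VPS26B (−0.42) and ARRB2, beta-arrestin 2 (−0.34), were lower. At 3% O2 VPS26C was higher (0.18, edgeR adjusted p = 0.0471). Of 14 tested cargo and ESCRT partner genes, 2 rose and 2 fell at 20% O2, a lower share than the 35.3% of all genes, among them VPS37A (0.38) and VPS37D (−1.19, at 0.666 ± 0.143 and 0.289 ± 0.0885 CPM, close to the filter on low counts), and none was called at 3% O2 (1 at an unadjusted p under 0.05). TSG101, the ESCRT protein that ARRDC1 recruits, was lower at 3% than at 20% O2 without Doxy (−0.39, edgeR adjusted p = 0.00285). It was higher with FDX2 loss at 20% O2 (0.22, edgeR adjusted p = 0.0324) and not called for oxygen with Doxy (−0.073, edgeR adjusted p = 0.76). The 6 tested AMPK subunit genes held 0 calls for FDX2 loss at 20% O2 (0 at an unadjusted p under 0.05) and 0 at 3% O2 (1 unadjusted), and PRKAA2, PRKAB2 and PRKAG1 were lower at 3% O2 without Doxy (−0.32, −0.30 and −0.23). No list was tested as a set.

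Over the 12 libraries, the genes most like TXNIP and ARRDC4 were taken by Pearson correlation of log2 CPM among the 10764 genes that averaged 5 CPM or more. For TXNIP these were GPATCH2L (0.96), LMLN (0.95), GPAM (0.95), CSRNP2 (0.94) and NEK9 (0.94), and for ARRDC4 they were GPATCH2L (0.95), KLF10 (0.95), GJA3 (0.94), TXNIP (0.93) and MCEE (0.92). GPAM encodes a mitochondrial acyltransferase that begins glycerolipid synthesis, and MCEE a mitochondrial epimerase. These are descriptions, since the 12 points share 4 group means. GPATCH2L was at 81.5 ± 2.23 CPM in 20% O2 + Doxy and 107 ± 1.25 in 20% O2 wo Doxy, a smaller range than that of TXNIP. ARRDC3 correlated with TXNIP at 0.73 and with ARRDC4 at 0.51, and MLX at −0.71 and −0.74.

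**Figure D5:**
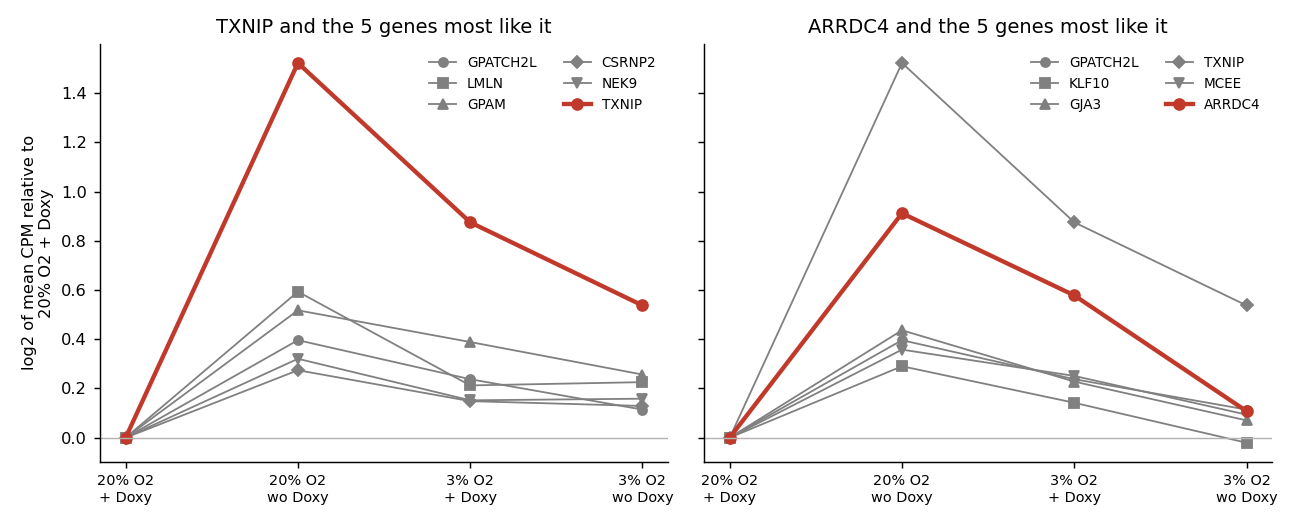
Group means of TXNIP (left, red) and ARRDC4 (right, red) and of the 5 genes most like each (grey), as log2 of the mean CPM relative to 20% O2 + Doxy, over the 4 conditions. All share a peak in 20% O2 wo Doxy, and the peak of TXNIP, 1.52 on the log2 scale, is the highest in both panels.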

How the data were processed

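RNA-seq was done on 12 libraries of FDX2-iKO ES2 cells in 4 conditions of 3. Poly(A) RNA was sequenced as paired ends, and the authors aligned with STAR, counted with featureCounts and deposited raw counts for each gene in each library. The submitters' notes name GRCh38 as the build, while the annotation and strand setting are not given in the sources used here. All 58735 identifiers are in GENCODE release 29, and 58207 matched a current symbol. For 20% O2 + Doxy replicates 1 and 2 part of the raw reads was lost by the submitters, but their counts were deposited and used. Authors' DESeq2-normalized values were not used here.

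The fit used edgeR 4.0.16 under R 4.3.3: filterByExpr (minimum count 10, minimum total 15), TMM scaling, and a quasi-likelihood fit of 4 condition means to 12 libraries (8 residual degrees of freedom). Genes were called at a Benjamini-Hochberg adjusted p under 0.05. Counting error limits genes near the filter, since totals lay between 24958386 and 34313637. Alternatives were DESeq2 1.42.0 (size factors, Wald test), other filters, a replicate block, the 6 libraries compared, leaving out each library, and a GC offset (lowess, span 0.3). Leaving out the GC-rich + Doxy libraries was added after the data were seen. Genes named individually were the 6 studied, up to 3 called genes without overlap per list and comparison by size of change, FDX2, CA9, LDHA, marker genes and the 5 genes most like TXNIP and ARRDC4; KLF10 and MYC, TXN, MLXIPL and some further values were named after they were seen. The 6 genes and the lists were chosen with earlier results of these data known. All 3 same-numbered pairs of libraries had deviations correlated above 0.1 only between 20% O2 wo Doxy and 3% O2 wo Doxy (0.19 to 0.50). Between 3% O2 + Doxy and 3% O2 wo Doxy they ran from −0.38 to 0.65, and pairs of different numbers reached 0.66. The result for a further gene is not reported here. The steps were tested on simulated counts.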

Additional observations from a re-analysis of the deposited data

Results flagged for a closer look

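The response to FDX2 loss differed between 3% and 20% O2, by the test of the difference itself (log2 fold change at 3% O2 minus that at 20% O2, edgeR's quasi-likelihood test, 12 libraries), for the genes below. For TXNIP the difference was −1.86 (adjusted p = 3.74e-06) and for ARRDC4 −1.38 (adjusted p = 0.000697). Of the 72 tested list genes 10 were called, 3 with a positive and 7 with a negative difference, where 7.29% of all genes were called. Not all of them are named here. The difference was −0.97 for MXD1, −0.77 for MXI1, −0.67 for MGA, −0.45 for KLF10, −0.85 for SLC2A3, −0.80 for HECW2 and −0.41 for NEDD4L, all below 0. It was 0.31 for SMURF2 and 1.76 for VPS37D, the latter at only 7 to 26 counts per library. The groups of 3 libraries are too small for a check of single outlying libraries.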

How the results depend on the processing

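Of 30 tests (6 genes in 5 comparisons), 14 were called, and in none of these did the direction turn under the alternatives run. The called tests that held under every planned or added alternative were those of TXNIP in all comparisons but FDX2 loss at 3% O2, of ARRDC4 for FDX2 loss at 20% O2, oxygen without Doxy and the difference between responses, of ARRDC3 for FDX2 loss at 20% O2, and of MLX for FDX2 loss at 20% O2. The number of the 6 genes called for FDX2 loss at 3% O2 (3) was 0 with only the 6 libraries compared and 0 to 3 without single libraries, 0 without 3% O2 + Doxy replicate 2 and 1 without 3% O2 wo Doxy replicate 2. For 3% against 20% O2 with Doxy (2) it was 1 without a filter, with the replicate block, with only the 6 libraries and without both GC-rich + Doxy libraries, and 1 to 2 without single libraries. For oxygen without Doxy (3) it was 5 with only the 6 libraries, and 5 with the replicate block in them. With the replicate block in all 12 libraries ARRDC4 lost its call for FDX2 loss at 3% O2 (edgeR adjusted p = 0.0632) and for oxygen with Doxy (0.0617), and no other call changed. The count of list genes called was 12 with DESeq2's Wald test and 18 without the GC-rich + Doxy libraries for FDX2 loss at 3% O2 (4), and 17 and 20 for the difference of the responses (10). With Spearman's rho, 2 of the 5 genes most like TXNIP and 3 of those most like ARRDC4 remained. Over all genes, calls for FDX2 loss at 3% O2 (1235) came to 581 to 765 without 3% O2 + Doxy replicate 1 or 2 or 3% O2 wo Doxy replicate 2 or 3. Those for oxygen with Doxy (341) came to 190 to 215 without 20% O2 + Doxy replicate 2 or 3 or 3% O2 + Doxy replicate 2, and those for oxygen without Doxy (4360) to 2321 to 2697 without any single 20% O2 wo Doxy library or 3% O2 wo Doxy replicate 2. For the difference (1231) they were 2191 without 3% O2 + Doxy replicate 3, 1034 to 1190 without 20% O2 + Doxy replicate 1 or 3 or 3% O2 wo Doxy replicate 1, and 520 to 810 without each other library. For FDX2 loss at 3% O2, oxygen with Doxy and the difference, in that order, the GC correction gave 3066, 1137 and 2952 calls, the replicate block 676, 218 and 615, DESeq2's Wald test 1944, 629 and 1916, no filter 678, 230 and 672, and leaving out the GC-rich + Doxy libraries 3331, 351 and 2497. With the 6 libraries alone there were 218 for FDX2 loss at 3% O2 and 128 for oxygen with Doxy.

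Values that turned sign all belonged to tests that were not called. For ARRDC1, the GC correction gave 0.10 for FDX2 loss at 20% O2, −0.055 at 3% O2, −0.037 for oxygen without Doxy (−0.048 with the replicate block) and −0.16 for the difference, and leaving out the GC-rich + Doxy libraries gave 0.11 for FDX2 loss at 20% O2. Without single libraries ARRDC1 ran from −0.34 to 0.13, −0.069 to 0.21, −0.080 to 0.38 (oxygen with Doxy) and −0.099 to 0.38 (difference). MLXIP for FDX2 loss at 3% O2 was 0.042 without the GC-rich + Doxy libraries and −0.19 to 0.076 without single libraries. MLX for FDX2 loss at 3% O2 was −0.0027 without a filter and −0.023 to 0.086 without single libraries. For oxygen with Doxy MLX was −0.0063 with DESeq2's size factors, −0.015 without a filter, −0.031 with the GC correction, −0.0058 with DESeq2's Wald test, −0.0034 in the 6 libraries, −0.052 without the GC-rich + Doxy libraries and −0.055 to 0.038 without single libraries. The causes were not tested. Depth limits ARRDC1 and ARRDC4, at fewer than 300 counts per library.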
